A study of Mus musculus with 10 samples.

Results

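Genes of the ADAM, ADAMTS and ADAMTSL families were compared between colon tumours of vil-Cre-Bcl9-/-/Bcl9l-/- mice (KO) and of wild-type mice (WT). The KO genotype targets Bcl9 and Bcl9l with Cre recombinase of the intestinal epithelium. The members were all genes whose symbol in the array annotation is Adam, Adamts or Adamtsl followed by a number. Each gene was read from 1 probe set, the one assigned to that gene alone with the highest mean over the 10 arrays. This gave 48 genes out of 18193 on the array, namely 28 ADAM, 15 ADAMTS and 5 ADAMTSL genes. A level filter kept genes whose mean signal reached log2 5.82, the 40th percentile over the array's probe sets. It left 21 of the 48, which were tested among 12250 genes in all.

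ADAM proteins are membrane-anchored proteins with a disintegrin and a metalloprotease domain, and the active ones release growth factors, cytokines and receptors from the cell surface. ADAMTS proteins are secreted relatives with thrombospondin motifs that cleave proteoglycans, procollagens and other matrix proteins, and ADAMTSL proteins resemble them but have no protease domain. In the intestine ADAM10 and ADAM17 are known as the main sheddases of the epithelium, where they process Notch receptors and ligands of the epidermal growth factor receptor. Many other ADAM genes of the mouse are known mainly from testis and epididymis.

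The 5 KO tumours had the genotype vil-Cre-Bcl9-/-/Bcl9l-/-, in which the villin promoter drives Cre recombinase in intestinal epithelium, and came from 3 mice, 2 each from mice 02 and 04 and 1 from mouse 99. The 5 WT tumours were labelled wildtype and came from 2 mice, 4 from mouse 72 and 1 from mouse 82. Whether WT mice carried Cre was not stated. All mice were of a 129SvEv/C57BL/6/DBA/2 mixed background. At 6 to 8 weeks of age they were given the carcinogen precursor dimethylhydrazine once (44 mg/kg), and drank 2% dextran sulfate sodium, which injures the colon, during the 7 days that followed. Tumour tissue was laser-dissected, and 1 Affymetrix array was listed per tumour. The protocols speak of pooling the samples of a mouse, so that each array stands for a single tumour was taken from the listing. Tumours of a mouse share the animal, so the mouse was a random block in the limma test. P-values measure the spread among these tumours, and precision is limited by how few arrays and mice there were.

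Some facts of the series bear on all results. The 5 probe sets of Bcl9 and Bcl9l differed between KO and WT means by −0.14 to 0.31 log2, and since their position relative to the deleted part is not given they check nothing about the genotypes. All 10 epithelial markers were measured above the level filter and none passed the test. Their mean ranged from 11.67 to 12.02 log2 in KO tumours and from 10.94 to 12.31 in WT tumours. Lymphocyte markers were higher in KO tumours, with 4 of 6 past the threshold and list means of 7.65 to 8.23 in KO tumours and 5.94 to 6.72 in WT tumours. Fibroblast markers had none of 8 past the threshold and list means of 9.43 to 10.40 in KO tumours and 9.26 to 10.51 in WT tumours. The numbers in the sample labels form 2 ranges, 191 to 229, with 1 KO and 4 WT tumours, and 254 to 258, with 4 KO and 1 WT tumour, and what the ranges stand for is not given. The arrays measure dissected tissue, so fewer cells of a type and less RNA per cell cannot be told apart.

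KO tumours had lower levels of 2 members, Adam12 and Adamts16, and no member was higher past the threshold. Adam12, whose protein is a protease of mesenchymal cells, had a 10.5-fold lower mean in KO tumours. Adamts16, a secreted ADAMTS protease, had a 1.78-fold lower mean. The share of tested members that fell was 9.52%, which rests on these 2 genes. Adam12 met the level filter through its WT mean (8.35 log2), since its KO mean (4.96) was under the filter. Of all tested genes 2.93% fell, 4.16% rose and 7.09% passed in either direction (limma, adjusted p under 0.05 over all genes tested). The median difference was −0.10 log2 over the 21 members and 0.03 over all genes tested. When all 48 members were fitted without the level filter, the same genes passed and no other member did. This made 2 of 48 members lower, where 417 of 18193 genes were lower and 5.4% passed in either direction. With 2 genes, whether members fell more often than other genes cannot be told. The KO groups lay entirely below the WT groups for Adam12, Adamts16 and Adamts7 and entirely above for Adam4. Of all tested genes 3.79% were separated downward and 5.33% upward in this way.

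**Figure D1:**
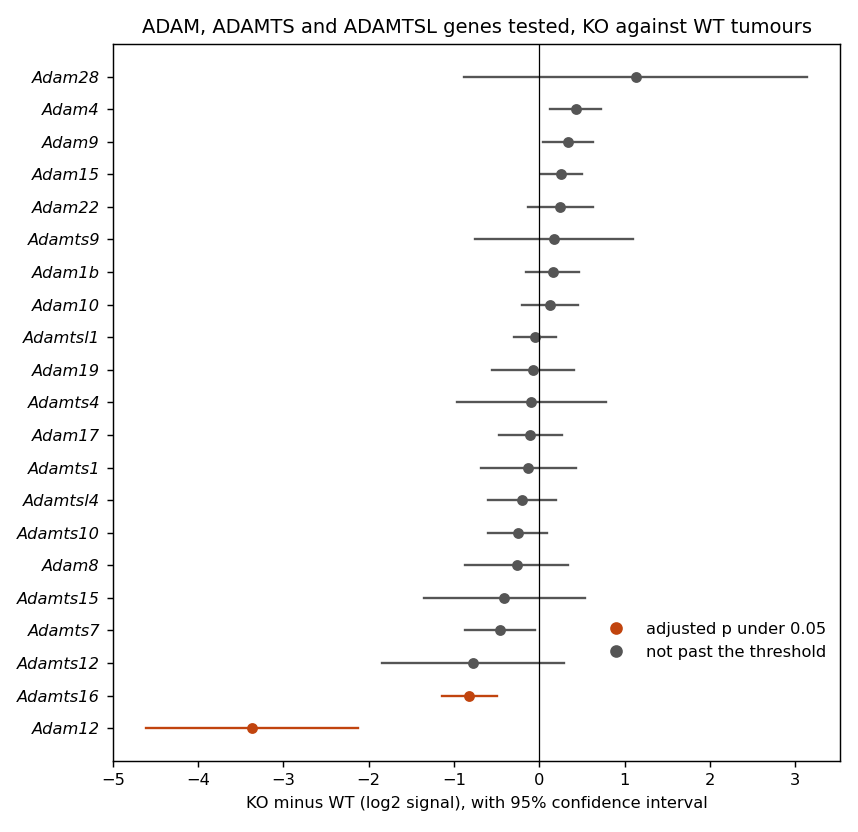
Difference between KO and WT tumours in log2 signal for the 21 tested members, as points with 95% confidence intervals from limma. Adam12 (−3.37) and Adamts16 (−0.82) are the members past the threshold, and the interval of Adam28 (1.13) is the widest, from −0.88 to 3.14.

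Adam12 lies on chromosome 7 (GRCm38.p6, 133883199 to 134225097) and was measured by 2 probe sets. With probe set 1421171_at, KO tumours 2, 6, 7, 9 and 11 had 6.29, 5.56, 3.76, 4.47 and 4.72 log2, against 8.88, 7.38, 7.38, 8.52 and 9.59 log2 in WT tumours 1, 3, 8, 12 and 13. Every KO tumour was below every WT tumour, and the highest KO value, of tumour 2, was 6.29 against a lowest WT value of 7.38. The means were 4.96 ± 0.98 log2 in KO tumours and 8.35 ± 0.96 log2 in WT tumours (mean ± SD of 5 tumours each), and the fitted difference was −3.37 ± 0.56 log2 (SE, limma, adjusted p = 0.00603). The KO mean was under the level filter, where background was not assessed, so the fold is not exact.

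The other Adam12 probe set, 1421172_at, gave the same order of groups. It had 5.24, 4.63, 3.71, 4.27 and 4.62 log2 in KO tumours 2, 6, 7, 9 and 11, against 8.12, 6.27, 6.26, 7.56 and 8.30 log2 in WT tumours 1, 3, 8, 12 and 13. With both probe sets KO tumour 2 was the highest and KO tumour 7 the lowest of the KO tumours, and WT tumours 3 and 8 were the lowest of the WT tumours. Fitted with all 34945 probe sets of a single gene, of which 4.46% passed, the difference of this probe set was −2.78 ± 0.46 log2 (SE, limma, adjusted p = 0.00769).

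By mouse, Adam12 averaged 5.92 log2 in KO mouse 02, 4.60 in KO mouse 04 and 3.76 in KO mouse 99, against 8.59 in WT mouse 72 and 7.38 in WT mouse 82. All 3 KO mice were below both WT mice. Over these mouse means the difference was −3.22 log2 and did not pass (limma, adjusted p = 0.0727), where 3.17% of all tested genes passed. Without mouse 72, which leaves 1 WT tumour, it was −2.48 (adjusted p = 0.211). Among tumours numbered 254 to 258, with 1 WT tumour, it was −3.62 (adjusted p = 0.0416), and among those numbered 191 to 229, with 1 KO tumour, −4.50 (adjusted p = 0.137).

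Adamts16 lies on chromosome 13 (GRCm38.p6, 70727798 to 70841845) and also had 2 probe sets. With probe set 1441841_at, KO tumours 2, 6, 7, 9 and 11 had 5.79, 5.98, 5.99, 5.90 and 6.25 log2, against 7.11, 6.68, 6.56, 6.66 and 7.06 log2 in WT tumours 1, 3, 8, 12 and 13. The groups did not overlap, with KO tumour 11 the highest of its group and WT tumour 8 the lowest of its own. The means were 5.98 ± 0.17 log2 in KO tumours and 6.81 ± 0.25 log2 in WT tumours (mean ± SD of 5 tumours each), and the fitted difference was −0.82 ± 0.14 log2 (SE, limma, adjusted p = 0.00831).

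The probe set 1439604_at, with lower signal for Adamts16, showed a difference of −1.41 ± 0.25 log2 when fitted with all probe sets (SE, limma, adjusted p = 0.0113). It had 3.13, 3.38, 3.60, 3.20 and 3.13 log2 in KO tumours 2, 6, 7, 9 and 11, against 5.36, 4.38, 4.31, 4.23 and 5.29 log2 in WT tumours 1, 3, 8, 12 and 13. Again no KO tumour reached the lowest WT tumour, and WT tumours 1 and 13 were the highest with both probe sets. By mouse, the first probe set averaged 5.89 log2 in KO mouse 02, 6.08 in KO mouse 04 and 5.99 in KO mouse 99, against 6.88 in WT mouse 72 and 6.56 in WT mouse 82. Adamts16 did not pass over mouse means (−0.73, limma, adjusted p = 0.0714), without mouse 72 (−0.58, adjusted p = 0.274) or among tumours numbered 191 to 229 (−0.76, adjusted p = 0.349), and it was −1.12 among those numbered 254 to 258, with 1 WT tumour (adjusted p = 0.0474).

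**Figure D2:**
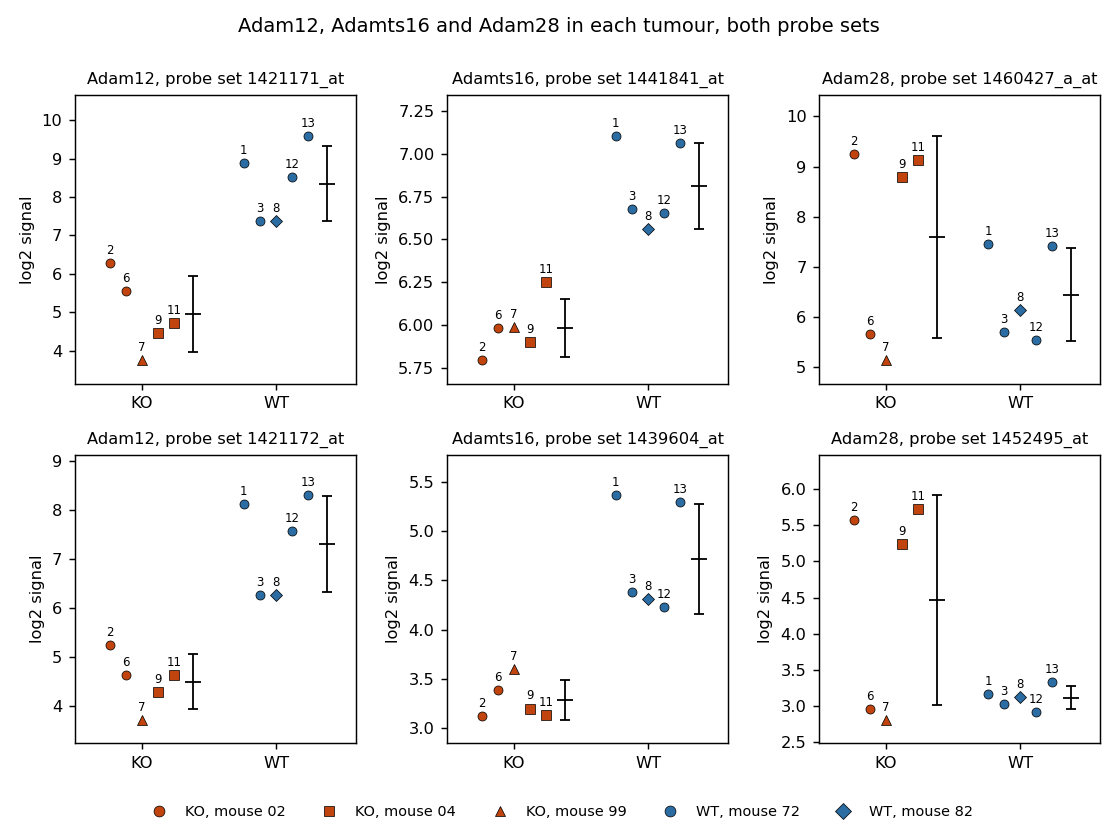
Log2 signal of both probe sets of Adam12, Adamts16 and Adam28 in each tumour, KO left of WT, with tumour numbers above the points, a symbol for each mouse, and bars for the mean and SD of 5 tumours. For Adam12 and Adamts16 no KO tumour reaches the lowest WT tumour with either probe set, and for Adam28 KO tumours 2, 9 and 11 stand apart from KO tumours 6 and 7.

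Adam28, which encodes an ADAM known from lymphocytes and from epithelia, varied more among KO tumours than any other tested member. KO tumours 2, 9 and 11 had 9.24, 8.79 and 9.13 log2 with probe set 1460427_a_at, and KO tumours 6 and 7 had 5.67 and 5.14. WT tumours 1, 3, 8, 12 and 13 had 7.45, 5.70, 6.14, 5.54 and 7.42 log2. KO tumours lay on both sides of the WT range, with tumour 6 inside it, and tumours 2 and 6, which come from the same mouse 02, differed by 3.58 log2. The SD was 2.01 among KO and 0.93 among WT tumours (n = 5 each), and the difference of the means, 1.13 ± 0.91 log2 (SE), did not pass (limma, adjusted p = 0.512).

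The second Adam28 probe set, 1452495_at, split the KO tumours in the same way. It had 5.57, 5.25 and 5.72 log2 in KO tumours 2, 9 and 11 and 2.96 and 2.81 in KO tumours 6 and 7, against 2.91 to 3.34 in WT tumours. With this probe set the 3 high KO tumours were above all WT tumours. The lymphocyte marker mean of the same tumours was 7.65, 8.13 and 8.15 log2 in KO tumours 2, 9 and 11, and 8.14 and 8.23 in KO tumours 6 and 7, without the same split. With the number range as a covariate the fitted difference of Adam28 was −0.14 log2, of the other sign.

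The genes of the sheddases ADAM10 and ADAM17 did not pass (limma, adjusted p = 0.681 and 0.752). Adam10, the main protease of Notch receptors, averaged 11.26 ± 0.14 log2 in KO tumours and 11.15 ± 0.28 in WT tumours (± SD, n = 5 each), with a difference of 0.12 log2 and a 95% confidence interval from −0.21 to 0.45. Adam17, the main protease for tumour necrosis factor, averaged 10.12 ± 0.16 in KO tumours and 10.25 ± 0.34 in WT tumours, with a difference of −0.11 and an interval from −0.48 to 0.26. Their probe sets did not share 1 sign, since 2 of 4 for Adam10 and 1 of 3 for Adam17 had the higher mean in KO.

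Adam9 and Adam15, both widely expressed membrane proteases, had slightly higher means in KO tumours. Adam9 had 10.21, 10.24, 9.93, 10.34 and 10.12 log2 in KO tumours 2, 6, 7, 9 and 11, against 9.74, 9.80, 9.65, 10.21 and 9.75 log2 in WT tumours 1, 3, 8, 12 and 13. WT tumour 12 lay among the KO tumours, and the other WT tumours lay below all of them. The difference was 0.34 ± 0.13 log2 (SE, limma, adjusted p = 0.163), and without WT tumour 12 it was 0.43 and passed (adjusted p = 0.0414). Adam15 averaged 7.51 ± 0.10 in KO tumours and 7.25 ± 0.17 in WT tumours (adjusted p = 0.182), and all 4 of its probe sets had the higher mean in KO, by 0.07 to 0.26 log2.

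Adam8, an ADAM of myeloid cells, and Adam19, of mesenchyme and the immune system, completed the tested active ADAMs. Adam8 averaged 6.54 ± 0.34 log2 in KO tumours and 6.82 ± 0.53 in WT tumours (± SD, n = 5 each, limma, adjusted p = 0.616). Adam19 averaged 8.67 ± 0.32 in KO tumours and 8.75 ± 0.39 in WT tumours (adjusted p = 0.877). Adam33 was under the level filter, at 5.17 in KO tumours and 5.23 in WT tumours. Of the ADAMs without protease activity, which act in the nervous system, Adam22 averaged 6.31 in KO tumours and 6.07 in WT tumours (adjusted p = 0.452), and Adam11 and Adam23 were under the filter.

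Of 16 ADAM genes known from testis or epididymis, 14 were under the level filter. They were Adam1a, Adam2, Adam3, Adam5, Adam6a, Adam6b, Adam7, Adam18, Adam21, Adam24, Adam25, Adam26a, Adam32 and Adam34. Chromosome 8 holds 9 of the 28 ADAM members, and of these Adam9 alone was above the filter. Adam4, from the same testis group, had 6.82, 7.21, 6.93, 7.07 and 6.83 log2 in KO tumours 2, 6, 7, 9 and 11, against 6.81, 6.36, 6.28, 6.63 and 6.72 log2 in WT tumours 1, 3, 8, 12 and 13. KO tumour 2 and WT tumour 1 nearly touched, and the difference of 0.42 ± 0.14 log2 did not pass (SE, limma, adjusted p = 0.0978). Adam1b averaged 6.22 in KO tumours and 6.06 in WT tumours (adjusted p = 0.559). Probe set 1427790_at, which the annotation assigns to both Adam1a and Mapkapk5 and which was therefore not used, averaged 6.51 in KO tumours and 6.07 in WT tumours without overlap, and its gene cannot be told. Adam1a and Adam1b, and Adam6a and Adam6b, are near copies that a probe set may not separate.

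The hyalectanases, ADAMTS proteases that cleave aggrecan and versican, had none of 4 tested members past the threshold. Adamts1 averaged 8.17 ± 0.42 log2 in KO tumours and 8.30 ± 0.41 in WT tumours (± SD, n = 5 each), and Adamts4 averaged 8.79 ± 0.32 in KO tumours and 8.92 ± 0.89 in WT tumours. Adamts9 averaged 7.34 ± 0.38 in KO tumours and 7.13 ± 0.93 in WT tumours. Adamts15 averaged 7.37 ± 0.47 in KO tumours and 7.76 ± 0.91 in WT tumours. Their adjusted p-values ranged from 0.620 to 0.917 (limma), and the sign of each changed in at least 1 alternative fit. Adamts4 had 9.31, 8.65, 8.61, 8.49 and 8.86 log2 in KO tumours 2, 6, 7, 9 and 11, against 9.66, 8.12, 7.83, 9.21 and 9.77 log2 in WT tumours 1, 3, 8, 12 and 13. All KO tumours lay inside the wide WT range. Adamts5, Adamts8 and Adamts20 were under the filter, as was Adamts3, a procollagen N-proteinase.

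Among the other ADAMTS genes, Adamts7 and Adamts12, related proteases that act on the cartilage protein COMP, had lower means in KO tumours without passing. Adamts7 had 6.04, 6.00, 5.71, 5.38 and 6.03 log2 in KO tumours 2, 6, 7, 9 and 11, against 6.84, 6.22, 6.13, 6.17 and 6.13 log2 in WT tumours 1, 3, 8, 12 and 13. The groups did not overlap, but the gap was narrow, and the difference was −0.46 ± 0.19 log2 (SE, limma, adjusted p = 0.177). Adamts12 averaged 5.74 ± 0.79 in KO tumours and 6.53 ± 0.84 in WT tumours (± SD, n = 5 each) with overlap (adjusted p = 0.382). The KO mean of Adamts12 was under the level filter, which this gene met through its WT mean. Adamts10, known for its link to fibrillin microfibrils, averaged 7.00 ± 0.21 in KO tumours and 7.26 ± 0.26 in WT tumours (adjusted p = 0.373).

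Adamts6 depended on the probe set. The one with the highest mean, 1437506_at, was under the level filter, with means of 4.35 log2 in KO tumours and 4.58 in WT tumours, and did not pass without the filter (limma, adjusted p = 0.329). The other, 1457548_at, had 3.60, 3.52, 3.19, 3.36 and 3.32 log2 in KO tumours 2, 6, 7, 9 and 11, against 4.32, 3.70, 4.25, 4.30 and 4.67 log2 in WT tumours 1, 3, 8, 12 and 13. It was lower in KO without overlap when fitted with all probe sets (adjusted p = 0.0204), at signal levels where background was not assessed. Adamts18 and Adamts19, the other members of this group, were under the filter. Adamts6 and Adamts16 are both on chromosome 13. Of the 22 members with more than 1 probe set, 16 had the same sign with all of them and 6 had both signs.

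The ADAMTSL genes, whose proteins bind the matrix and have no protease domain, had none of 2 tested members past the threshold. Adamtsl1 averaged 6.29 ± 0.16 log2 in KO tumours and 6.34 ± 0.13 in WT tumours, and Adamtsl4, associated with fibrillin fibres of the eye, 6.98 ± 0.35 in KO tumours and 7.16 ± 0.22 in WT tumours (± SD, n = 5 each, limma, adjusted p = 0.839 and 0.561). Adamtsl2, Adamtsl3 and Adamtsl5 were under the filter. Of the 27 members under the filter, 23 had the lower mean in KO tumours and 4 the higher, with differences from −0.33 to 0.35 log2. None of these 27 separated the groups, Adamtsl2 alone had an unadjusted p under 0.05, and their adjusted p-values without the filter ranged from 0.238 to 0.987 (limma). How often all genes under the filter had the lower mean in KO, or separated the groups, was not counted. The counts for these 27 are therefore no result about the family.

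**Figure D3:**
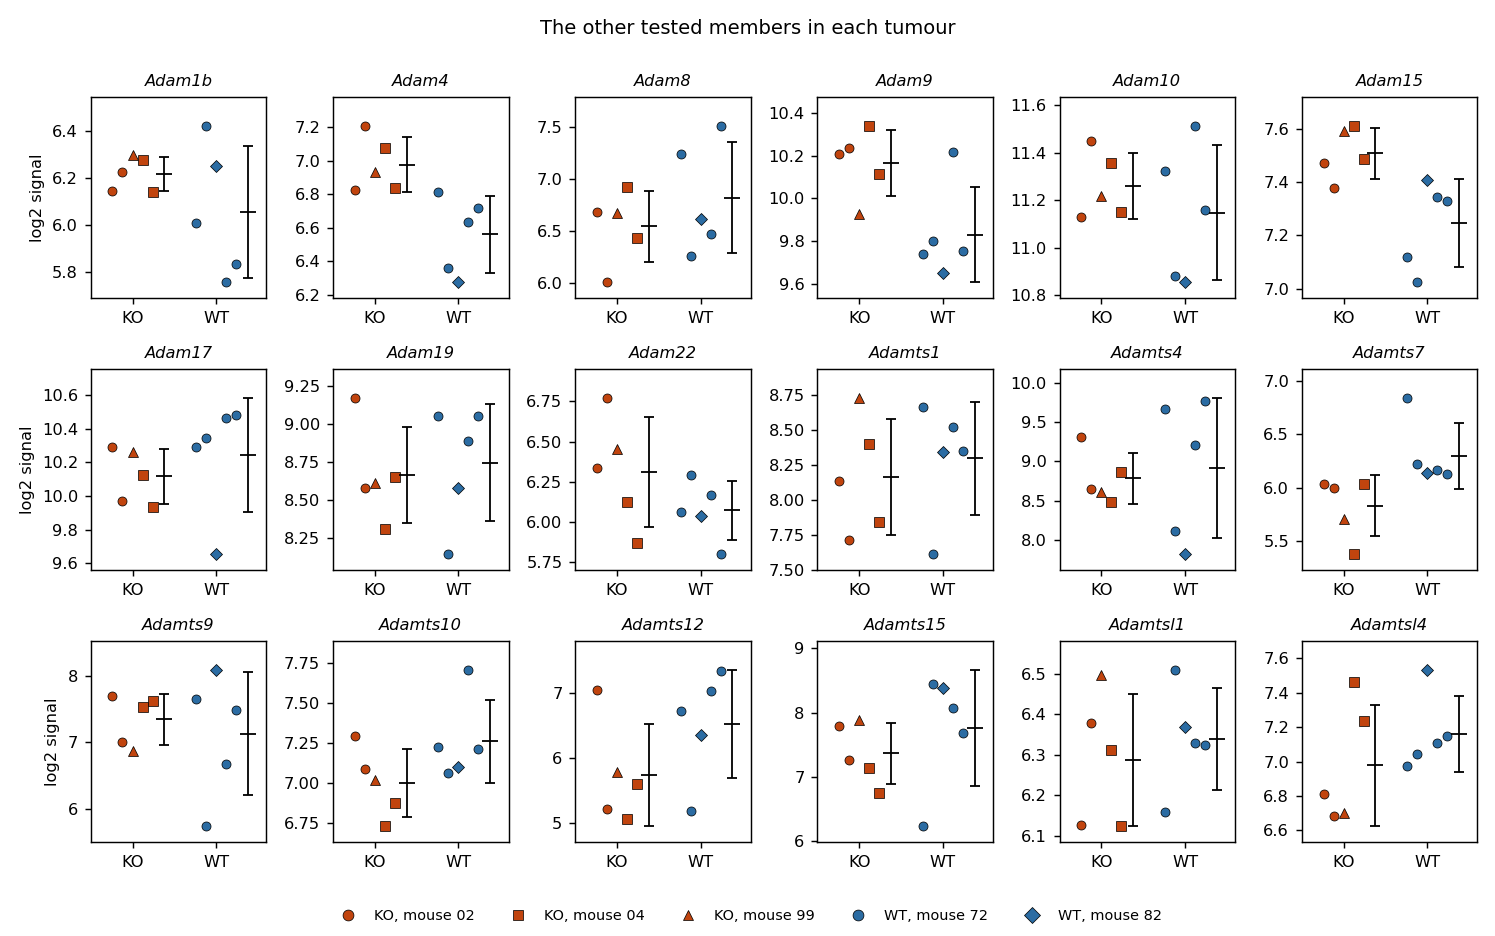
Log2 signal of the other 18 tested members in each tumour, KO left of WT, with a symbol for each mouse and bars for the mean and SD of 5 tumours. Each panel has its own scale. Adam4 and Adamts7 separate the groups narrowly, and WT tumour 12 lies among the KO tumours for Adam9.

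Within each genotype the tumours did not share 1 level of these genes. The SD of a tested member over 5 tumours ranged from 0.07 to 2.01 log2 among KO tumours (median 0.32) and from 0.13 to 0.96 among WT tumours (median 0.31). KO tumour 2 had the highest value of its group for 9 of the 21 members, among them Adam12, Adam19, Adam28, Adamts4 and Adamts12. WT tumours 3 and 8 each had the lowest value of their group for 7 members, tumour 3 for Adam19, Adamts1, Adamts9 and Adamts12 among others, and tumour 8 for Adam10, Adam17 and Adamts4 among others.

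Marker lists of several cell types differed among tumours of a genotype. The fibroblast mean was 10.40 log2 in KO tumour 2, while the other KO tumours had 9.43 to 9.80. WT tumour 3 had 9.26, while the other WT tumours had 10.18 to 10.51. KO tumour 2 was also the highest KO tumour, and WT tumour 3 the lowest WT tumour, for endothelial (7.74 and 6.30 log2), smooth muscle (8.49 and 7.22) and myeloid markers (9.26 and 8.07). For epithelial markers KO tumour 2 was the lowest of its group (11.67) and WT tumour 3 the highest (12.31). Adamts12, whose groups overlapped, had 7.05 log2 in KO tumour 2 and 5.17 in WT tumour 3, the highest KO and the lowest WT value. For Adam12, KO tumour 2, with a list mean of 10.40, had 6.29, the highest KO value, and WT tumour 3, with a list mean of 9.26, had 7.38. WT tumours 1 and 13, with list means of 10.48 and 10.51, had the highest WT values of Adam12, 8.88 and 9.59. WT tumour 8, with a list mean of 10.20, had 7.38. Adamts16 had its lowest value of all tumours, 5.79, in KO tumour 2. Leaving out KO tumour 2 gave differences of −3.69 log2 for Adam12 and −0.78 for Adamts16, and leaving out WT tumour 3 gave −3.60 and −0.85. The part of these cell types in the differences was not tested.

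**Figure D4:**
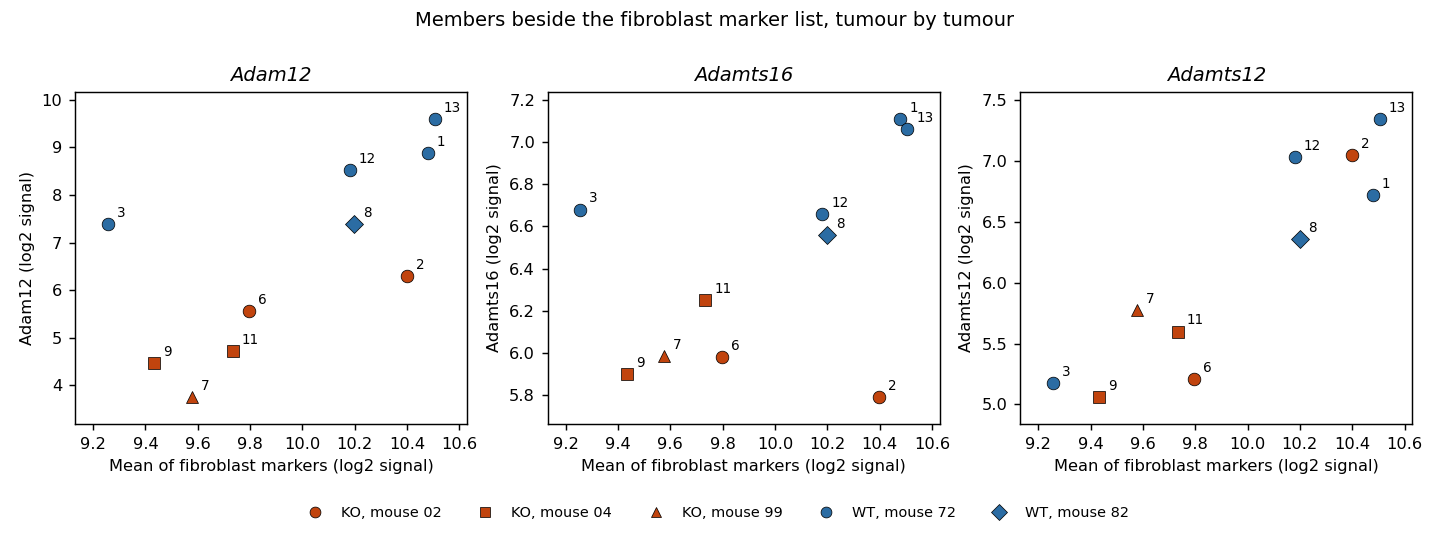
Log2 signal of Adam12, Adamts16 and Adamts12 in each tumour against the mean of 8 fibroblast markers in the same tumour, with tumour numbers beside the points and a symbol for each mouse. KO tumour 2 is above WT tumour 3 for Adamts12 and below it for Adam12 and Adamts16.

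Lists of related genes, chosen with earlier results of these data known, were compared next. For lists chosen in this way, whether their genes changed more often than other genes cannot be told. The first held genes that control ADAM and ADAMTS proteases. Of 19 tested regulators and activators, 2 fell and none rose, where 2.93% of all tested genes fell and 4.16% rose. The median difference was −0.02 log2, against 0.03 over all genes tested. Timp2, which encodes a tissue inhibitor of metalloproteases, had 8.98, 8.51, 8.54, 8.19 and 8.40 log2 in KO tumours 2, 6, 7, 9 and 11, against 10.73, 9.16, 10.38, 10.06 and 10.35 log2 in WT tumours 1, 3, 8, 12 and 13. Its difference was −1.62 ± 0.28 log2 (SE, limma, adjusted p = 0.00810). Tspan5, a tetraspanin that carries ADAM10 to the cell surface, had 7.78, 7.44, 6.94, 7.36 and 7.98 log2 in the same KO tumours, against 9.84, 8.63, 9.72, 8.58 and 9.14 log2 in the same WT tumours. Its difference was −1.71 ± 0.30 log2 (SE, adjusted p = 0.00846).

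For both genes the groups were apart, and each also passed over mouse means (limma, adjusted p = 0.0156 for Timp2 and 0.0330 for Tspan5). Timp3, the inhibitor best known for ADAM17 and the aggrecan-cleaving ADAMTS proteases, averaged 11.38 ± 0.27 in KO tumours and 10.46 ± 0.64 in WT tumours (± SD, n = 5 each) and did not pass (adjusted p = 0.0941), except without WT tumour 12 (1.14, adjusted p = 0.0183) and among tumours numbered 254 to 258, with 1 WT tumour (1.76, adjusted p = 0.0294). Rhbdf2, an iRhom that brings ADAM17 to the surface, differed by −0.14 log2 (adjusted p = 0.453), and Furin, a convertase that removes their inhibitory domains, by −0.02 (adjusted p = 0.956).

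Of 28 tested genes whose proteins are shed by ADAM10 or ADAM17, 3 rose and none fell, where 4.16% of all tested genes rose and 2.93% fell. The median difference was 0.19 log2, against 0.03 over all genes tested. Alcam, a cell adhesion molecule, averaged 11.28 ± 0.29 log2 in KO tumours and 10.12 ± 0.52 in WT tumours (± SD, n = 5 each), with a difference of 1.14 ± 0.26 log2 (SE, limma, adjusted p = 0.0252). Tnfrsf1a, a receptor of tumour necrosis factor, differed by 0.66 ± 0.16 (adjusted p = 0.0302) and the Notch ligand gene Dll1 by 0.64 ± 0.16 (adjusted p = 0.0382). Over mouse means Alcam, Tnfrsf1a and Dll1 did not pass (adjusted p = 0.153, 0.151 and 0.0716). When the number range entered the fit, the calls of Alcam (adjusted p = 0.0615) and Dll1 (0.114) were lost, and that of Dll1 also with cyclic loess normalisation (0.0511). Leaving out 1 tumour also ended calls, with 1 of the 28 past the threshold without KO tumour 6, KO tumour 11, WT tumour 1 or WT tumour 3, and 5 without WT tumour 12. Tnfrsf1a also did not pass without KO tumour 7 or WT tumour 13, nor Dll1 without KO tumour 9 or WT tumour 8. Not past the threshold were the growth factor gene Hbegf (0.41 log2), the receptor gene Notch1 (0.03) and the cytokine gene Tnf (0.32).

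Of 19 tested matrix substrates and partners of ADAMTS proteases, 6 fell and none rose, where 2.93% of all tested genes fell and 4.16% rose. Of the 19, 18 had the lower mean in KO tumours, against 5664 of all 12250 tested genes. The median difference was −0.53 log2, against 0.03 over all genes tested. Ltbp1, which encodes a matrix protein that holds latent transforming growth factor beta, averaged 8.34 ± 0.31 log2 in KO tumours and 10.63 ± 0.54 in WT tumours (± SD, n = 5 each), with a difference of −2.29 ± 0.27 (SE, limma, adjusted p = 0.00101). The thrombospondin genes Thbs2 and Thbs1 differed by −4.26 and −1.80 log2, the collagen cross-linking enzyme gene Lox by −1.58, the fibronectin gene Fn1 by −1.49 and the collagen gene Col2a1 by −1.22 (adjusted p = 0.000231 to 0.0295). The KO means of Thbs2 (5.01) and Col2a1 (5.25) were under the level filter. Both genes met the filter through their WT means, and the sizes of their differences are not exact. Since the list was chosen with earlier results known, whether its genes fell more often than other genes cannot be told. Vcan, which encodes the hyalectan versican, averaged 7.60 ± 0.60 in KO tumours and 8.31 ± 0.45 in WT tumours and did not pass (adjusted p = 0.218). Leaving out KO tumour 6 or mouse 04 left 2 of the 19 past the threshold. Lox also did not pass without KO tumour 11 or WT tumour 1, 8 or 13, nor Col2a1 without WT tumour 1 or 8 (limma, adjusted p = 0.0508 to 0.0658). With 1 mean per mouse the call of Fn1 was lost (adjusted p = 0.175), as it was without mouse 72 (−0.66 log2, adjusted p = 0.5002). The call of Lox was lost without mouse 72 (adjusted p = 0.0864) and when the number range entered the fit (adjusted p = 0.0851). The fibroblast list, with means of 9.43 to 10.40 in KO tumours and 9.26 to 10.51 in WT tumours, shares Col1a1, Col1a2, Col3a1 and Dcn with these 19 genes, and none of those passed.

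**Figure D5:**
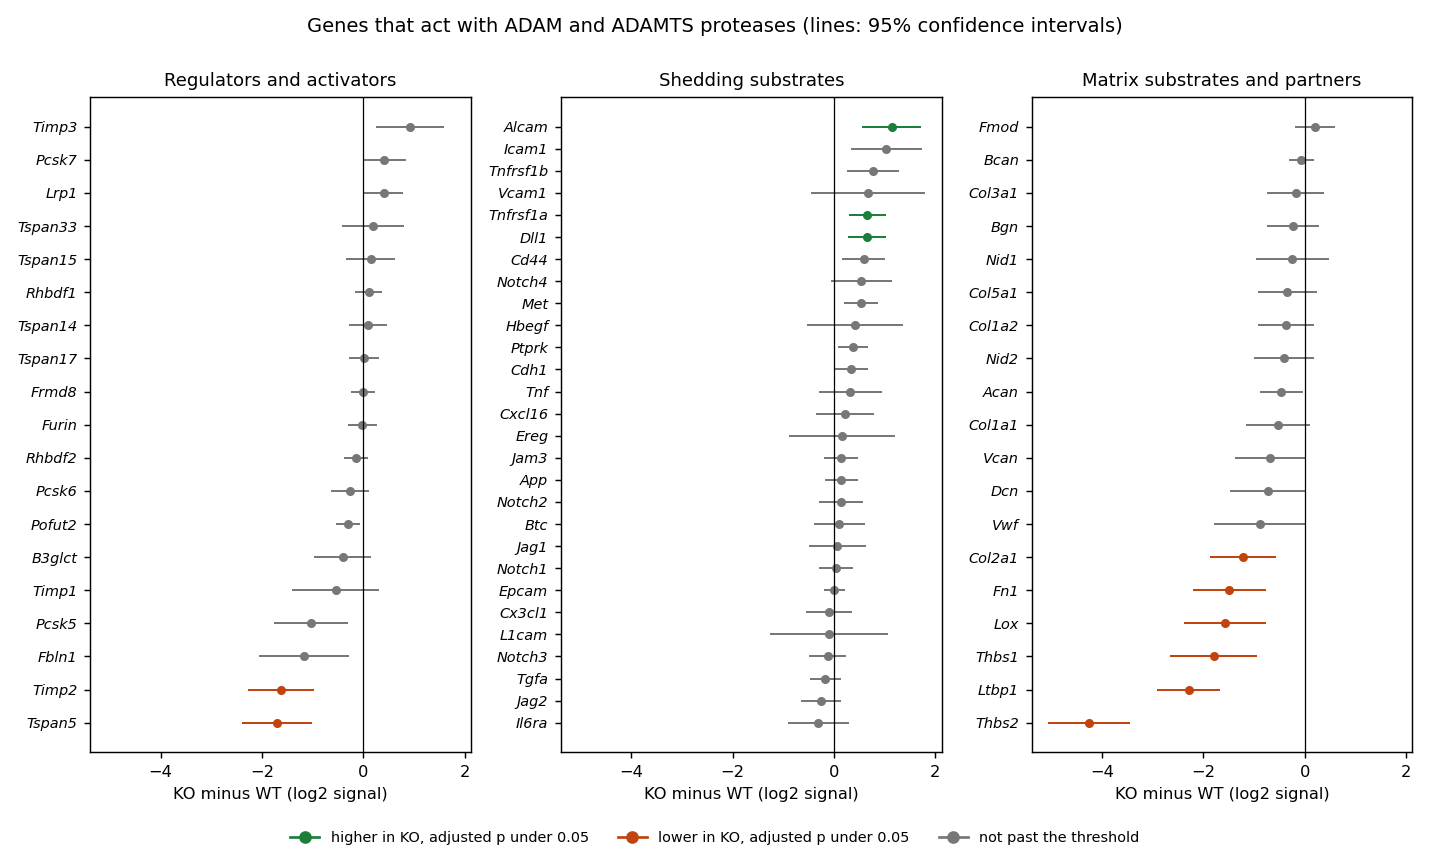
Difference between KO and WT tumours in log2 signal for the tested genes of 3 lists, with 95% confidence intervals from limma. Timp2 and Tspan5 are lower among 19 regulators and activators, Alcam, Tnfrsf1a and Dll1 higher among 28 shedding substrates, and 6 genes lower among 19 matrix substrates and partners.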

How the data were processed

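RNA of 10 laser-dissected tumours was amplified and hybridised to Affymetrix whole-genome mouse arrays. Signal values were deposited on the log2 scale, 1 per probe set, after RMA, per the submitters' processing notes (its version is not given in the sources used here). The labels' protocols speak of pooling the samples of a mouse, whereas arrays are listed per tumour, and they were treated as listed. Array medians ranged from 6.43 to 6.50 log2. Of 45101 probe sets, 34945 had 1 gene symbol, 932 several, 9160 none, and 64 were controls. Symbols of 34741 were updated by Entrez identifier through the GRCm38.p6 gene table, and 204 kept the annotation's name.

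The 12250 genes above the level filter were fitted with limma 3.58.1 in R 4.3.3 (lmFit and eBayes), with the mouse as a random block (statmod 1.5.0, consensus correlation 0.0586) and Benjamini-Hochberg adjustment at 0.05. The script was tested on simulated data. Members, lists and alternatives were chosen with earlier results of these data known. Every member was named. Of the partner lists, genes past the threshold were named, plus Timp3, Rhbdf2, Furin, Hbegf, Notch1, Vcan and Tnf. Alternatives changed the block, the filter, the probe set, the normalisation, and the tumours, mice or number range used. The fit of every single-gene probe set was added after the data were seen. Activity classes of ADAM proteins were taken from general knowledge.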

Additional observations from a re-analysis of the deposited data

Results flagged for a closer look

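In 4 of 78 groups of 5 tumours examined, 1 tumour stood far from the other tumours of its genotype by Dixon's gap-to-range criterion at the 95% level, which chance alone passes in about 1 in 20 groups. Adam9 was at 10.21 log2 in WT tumour 12, against 9.65 to 9.80 in the other WT tumours. Adam17 was at 9.66 in WT tumour 8, the only tumour of mouse 82, against 10.29 to 10.48 in the other WT tumours. Adamts7 was at 6.84 in WT tumour 1, against 6.13 to 6.22, and Adamts10 at 7.71 in WT tumour 12, against 7.06 to 7.22.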

How the results depend on the processing

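With 0 members higher and 2 lower in KO tumours, the counts changed as follows. The number lower was 0 over 1 mean per mouse, where 3.17% of all tested genes passed in either direction. It was 0 with the filter at the 60th percentile, where neither gene was tested. With the mean of all probe sets of a gene it was 1, and Adamts16 was not tested. Within numbers 191 to 229 the log2 difference was −4.50 for Adam12 and −0.76 for Adamts16, and without mouse 72 −2.48 and −0.58. Leaving out 1 tumour gave 2 to 2 lower and 0 to 1 higher, the 1 being Adam9 without WT tumour 12. Of 19 regulators, 2 to 3 passed with 1 tumour left out. Of 28 shedding substrates, 0 passed over mouse means, 5 (of 26 tested) with the mean of all probe sets and 0 without mouse 04. With 1 tumour left out 1 to 5 passed. Without mouse 04, 265 of all 12250 tested genes rose and 202 fell. Of 19 matrix genes, 3 (of 12 tested) passed with the filter at the 60th percentile, which left out Thbs2, Lox and Col2a1. Without mouse 04 2 passed, and with 1 tumour left out 2 to 7. Fits within a range, or without mouse 72, leave 1 tumour in a group, which is assumed to vary like the others, so their counts are not given. The cause of the other changes was not tested.

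Of 571 member differences recomputed, 36 had the other sign, in 12 of the 21 members, with no adjusted p under 0.216. The values that follow also include the partner genes Furin, Hbegf, Notch1, Tnf and Rhbdf2, which are not counted among these 36 differences. Without mouse 72 the log2 differences of the other sign were −0.030 for Adam1b, 0.47 for Adam17, 0.079 for Adam19, 0.95 for Adamts4, −0.77 for Adamts9, 0.026 for Furin, −0.16 for Hbegf, −0.046 for Notch1 and −0.032 for Tnf. Without mouse 04 they were 0.042 for Adam19 and −0.032 for Tnf, without mouse 02 0.031 for Adamts1 and 0.064 for Furin, and without mouse 99 −0.020 for Notch1. Over mouse means they were 0.12 for Adam17, 0.25 for Adamts4 and −0.23 for Adamts9. With the number range as a covariate they were −0.14 for Adam28, −0.24 for Adamts9, 0.35 for Adamts15 and 0.10 for Adamtsl1. Within 191 to 229 they were 0.0017 for Adam17, −1.06 for Adam28, 0.53 for Adamts1, −0.082 for Adamts9 and 0.11 for Adamtsl1. Within 254 to 258 they were −0.054 for Adam10, −0.19 for Adamts9, 0.997 for Adamts15, 0.077 for Adamtsl1, 0.073 for Adamtsl4, 0.027 for Rhbdf2, 0.032 for Furin and −0.013 for Notch1. With the mean of all probe sets Adam10 had −0.020. Other probe sets gave −0.089 and −0.15 for Adam10, 0.16 for Adam17, −0.27 for Adam22, −0.25 for Adamts9, and 0.21 and 0.10 for Adamtsl1. With 1 tumour left out, the range was −0.22 to 0.0073 for Adam19, −0.40 to 0.10 for Adamts4, −0.17 to 0.45 for Adamts9, −0.076 to 0.071 for Furin and −0.028 to 0.12 for Notch1. No paired analysis was possible because no mouse gave both KO and WT tumours.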
